A study of Mus musculus with 207 samples.

Results

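The 35 mouse genes described here are transcribed mainly in T cells and in lymphocytes that kill other cells, and they were followed through jejunum and liver of C57BL/6 mice fed 6 diets. They were picked by symbol from a table of 55536 genes and sorted by role: chains of the antigen receptor complex, its first kinases and adaptors, coreceptors, adhesion and costimulatory receptors, granule proteins, secreted chemokines and a cytokine, transcription factors, and killer lectins with a cytokine receptor. Enough reads for a test were present for 33 of the 35 in jejunum (not for Ifng and Eomes) and for 23 in liver.

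A T cell recognises antigen with a receptor whose signal is carried by the CD3 chains and CD247, started by the kinase Lck and passed on by Zap70. CD8 marks cytotoxic and CD4 marks helper T cells, and killing is done by granules loaded with perforin and granzymes. The small intestine holds a large population of such cells between its epithelial cells, the intraepithelial lymphocytes, many of which carry CD8 alpha chains without CD8 beta and the integrin CD103, encoded by Itgae, which binds E-cadherin on the epithelium.

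The diets combined a protein, labelled WPI or CAS, with a fat level, labelled FAT-20, FAT-40 or FAT-55. The abbreviations stand for whey protein isolate and casein from knowledge of the study, since the labels give the short forms, and every diet carried protein at level 30. In each tissue WPI-30_FAT-20, WPI-30_FAT-40 and WPI-30_FAT-55 had 12 mice each, against 11, 12 and 11 mice on CAS-30_FAT-20, CAS-30_FAT-40 and CAS-30_FAT-55. By their identifiers the same 70 mice gave both tissues. Sex, age, cage and batch are not in the labels; mice on one diet share the start of their identifiers in sets (4 in each group), and nothing says whether such a set was a cage. The depth on genes was 17.5 to 23.8 M reads per jejunum library and 21.0 to 41.0 M reads per liver library. Fabp2, a fatty acid binding protein of enterocytes, had group medians of 4418 to 7324 CPM (read count scaled to library size) in jejunum, and albumin (Alb) had medians of 62353 to 77619 CPM in liver and under 1 CPM in jejunum.

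Promoters of 5 members that the jejunum results turn on are given first. Cd3g, Cd3d and Cd3e lie beside each other on chromosome 9 and all fell on WPI averaged over fat. Cd8a and Gzma stand for the coreceptor and the granule. RefSeq promoters (build GRCm38.p6, 250 bases before to 50 after a start) were present for 23 of the 35 members, 28 promoters in all. Capitals mark matches, on either strand, to TGTGGT or TGCGGT (Runx-like), AGGAAG (ETS-like), AGGTGT (T-box-like) and CACCTG (E box); the last pair overlap where the letters run ACACCTG.
Cd3g (chr9:44980382-44980681, minus strand): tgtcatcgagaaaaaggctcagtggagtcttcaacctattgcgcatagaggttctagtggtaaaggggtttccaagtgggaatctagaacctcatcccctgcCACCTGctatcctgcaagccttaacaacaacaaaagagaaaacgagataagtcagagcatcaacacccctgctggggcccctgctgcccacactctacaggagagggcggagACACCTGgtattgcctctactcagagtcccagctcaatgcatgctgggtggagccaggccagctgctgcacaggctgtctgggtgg
Cd3d (chr9:44981536-44981835, plus strand): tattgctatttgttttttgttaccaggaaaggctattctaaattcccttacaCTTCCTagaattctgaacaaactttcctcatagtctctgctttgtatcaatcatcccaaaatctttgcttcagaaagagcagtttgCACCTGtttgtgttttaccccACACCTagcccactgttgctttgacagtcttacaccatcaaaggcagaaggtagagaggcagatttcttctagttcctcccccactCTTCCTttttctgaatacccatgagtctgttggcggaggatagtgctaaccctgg
Cd3e (chr9:45009562-45009861, minus strand): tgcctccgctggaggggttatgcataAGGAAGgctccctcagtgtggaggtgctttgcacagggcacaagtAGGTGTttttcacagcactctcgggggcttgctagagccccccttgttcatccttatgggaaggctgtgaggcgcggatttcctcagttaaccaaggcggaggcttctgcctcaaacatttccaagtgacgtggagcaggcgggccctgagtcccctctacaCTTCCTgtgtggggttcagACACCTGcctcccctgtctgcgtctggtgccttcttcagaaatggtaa
Cd8a (chr6:71373177-71373476, plus strand): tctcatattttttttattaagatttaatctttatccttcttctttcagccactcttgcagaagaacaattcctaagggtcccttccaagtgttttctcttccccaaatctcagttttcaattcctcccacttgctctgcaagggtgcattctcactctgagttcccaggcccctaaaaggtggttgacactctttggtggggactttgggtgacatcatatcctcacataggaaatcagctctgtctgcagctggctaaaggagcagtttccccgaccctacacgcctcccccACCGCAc
Gzma (chr13:113100932-113101231, minus strand): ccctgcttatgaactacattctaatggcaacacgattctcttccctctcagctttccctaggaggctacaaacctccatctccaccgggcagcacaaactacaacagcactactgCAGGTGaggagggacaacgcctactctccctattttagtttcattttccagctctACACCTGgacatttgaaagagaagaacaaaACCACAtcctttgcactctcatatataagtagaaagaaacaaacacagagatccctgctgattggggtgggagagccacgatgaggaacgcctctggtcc
Cd3g and Cd3d are read away from each other with 1354 bases between their 5′ ends. Of the 28 member promoters, 14 held Runx-like letters, against 22.4% of all 32851 mouse promoters in the table. ETS-like letters stood in 15 (53.6%, against 35.4% of all), T-box-like letters in 8 (28.6%, against 13.7%) and the E box in 14 (against 20.2% of all). These are matches of letters, not measured binding.

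Per length of exon, granule and chemokine mRNA stood highest in jejunum and Zap70 stood highest in liver. In jejunum the median over 70 libraries was 29.6 CPM per kb for Gzma, a serine protease of cytotoxic granules, 12.5 CPM per kb for Ccl5, a chemokine stored and released by cytotoxic T cells, and 9.04 CPM per kb for Gzmb, another granule protease. Cd7 (5.58 CPM per kb), Nkg7 (3.68), Itgae (3.28), Cd4 (3.18) and Cd8a (2.84) came next, and neighbours in that order covered each other's medians with their ranges over libraries. Cd3e (1.03 CPM per kb) and Cd3d (1.02), both signalling chains of the receptor, were almost level. Ifng, the cytokine interferon gamma, had no read in 36 of 70 jejunum and 41 of 70 liver libraries. Eomes, a transcription factor of killer cells, had none in 26 jejunum and 15 liver libraries.

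Levels of most members were lower and less precise in liver. The level per length was 117 times higher in jejunum than in liver for Gzma, 35.9 times for Cd8a, 33.4 times for Itgae and 9.45 times for Cd3e, and liver libraries held a median of 12 reads on Cd3e and 7 on Cd8a. Zap70 went the other way, at 0.965 CPM per kb in jejunum and 3.95 CPM per kb in liver (306 median reads). Within diets its log2 level over 70 liver libraries had r = -0.06 with that of Cd3e, where Il2rb (0.72) and Thy1 (0.70) moved with Cd3e. Klrk1, which encodes the activating receptor NKG2D, was also higher in liver (0.193 CPM per kb) than in jejunum (0.130 CPM per kb). Tissues were normalized separately, so these ratios of levels carry no test.

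**Figure D1:**
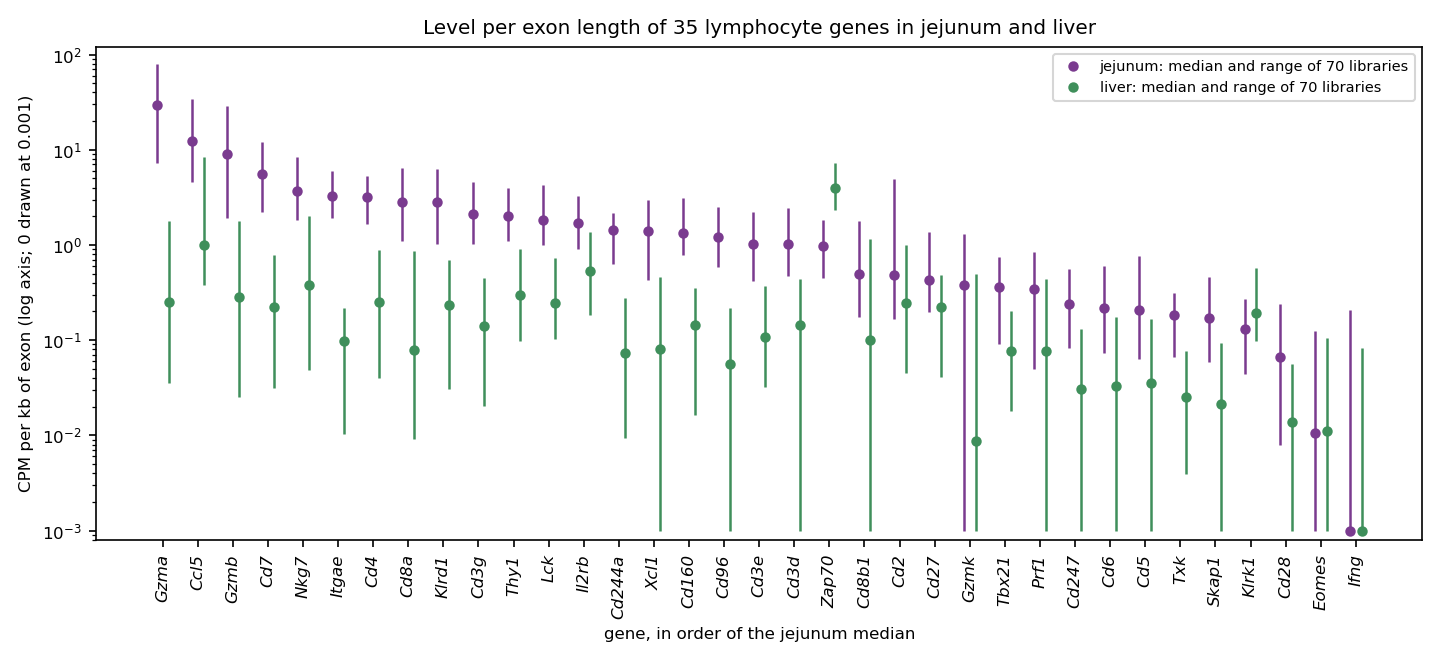
Median (point) and range (line) of CPM per kb of exon over 70 jejunum and 70 liver libraries for the 35 genes, on a log axis with values of 0 drawn at 0.001. Gzma, Ccl5 and Gzmb lead in jejunum, and Zap70 (3.95 CPM per kb) is the highest gene in liver.

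In jejunum, lymphocyte mRNA was lower on WPI than on CAS across nearly every role. Averaged over the fat levels, 26 of 33 members fell, 0 rose and all 33 estimates were below 0, at edgeR's quasi-likelihood test with Benjamini-Hochberg adjusted p under 0.05. Of all 16992 genes tested, 8.83% were called lower and 6.50% higher. The median log2 fold change of WPI over CAS was -0.43 over the members and -0.01 over all genes. Whole tissue was sequenced, so fewer cells of a type and less of an mRNA per cell cannot be told apart.

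All 4 chains of the receptor complex fell on WPI. Cd3g, which encodes the CD3 gamma chain, had a lowest, median and highest level of 3.33, 4.25 and 7.36 CPM on WPI FAT-20, against 4.36, 7.58 and 15.1 CPM on CAS FAT-20. At FAT-55 it had 3.51, 5.06 and 6.64 CPM on WPI, against 6.79, 7.63 and 11.4 CPM on CAS. The FAT-55 groups were just apart, with the WPI maximum of 6.64 CPM below the CAS minimum of 6.79 CPM. How many of all genes had groups apart was not counted. In that comparison edgeR called 3.70% of all genes. The FAT-20 groups overlapped although 12 of 12 WPI libraries lay below the CAS median. Averaged over fat Cd3g changed by -0.58 ± 0.08 (log2, SE; edgeR adjusted p = 2.6e-07), and 34 of 36 WPI libraries lay below the CAS median of their fat level.

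Cd3e, the CD3 epsilon chain, had 1.73, 2.64 and 5.22 CPM on WPI FAT-20, against 3.39, 4.95 and 8.99 CPM on CAS FAT-20. The upper WPI libraries reached into the CAS range, and the CAS maximum was replicate 3, which was the highest of its group for 18 of the 33 members. The log2 change of Cd3e averaged over fat was -0.50 ± 0.09 (edgeR adjusted p = 1.5e-05). Cd3d, the delta chain, changed by -0.59 ± 0.11, and Cd247, the zeta chain that carries most of the signalling motifs, by -0.51 ± 0.11.

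Of the kinases and adaptor, Lck, Zap70 and Skap1 fell and Txk did not pass. Lck, the kinase that starts receptor signalling, had 2.91, 4.52 and 6.53 CPM on WPI FAT-20, against 4.32, 7.72 and 12.6 CPM on CAS FAT-20. All 12 WPI libraries lay below the CAS median there, with overlapping ranges. Its change averaged over fat was -0.64 ± 0.09 (edgeR adjusted p = 2.1e-07), beside -0.56 ± 0.08 for Zap70 and -0.35 ± 0.10 for Skap1, an adaptor that links the receptor to integrins. Txk, a kinase of the Tec family, was at -0.12 ± 0.11 (edgeR adjusted p = 0.55).

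**Figure D2:**
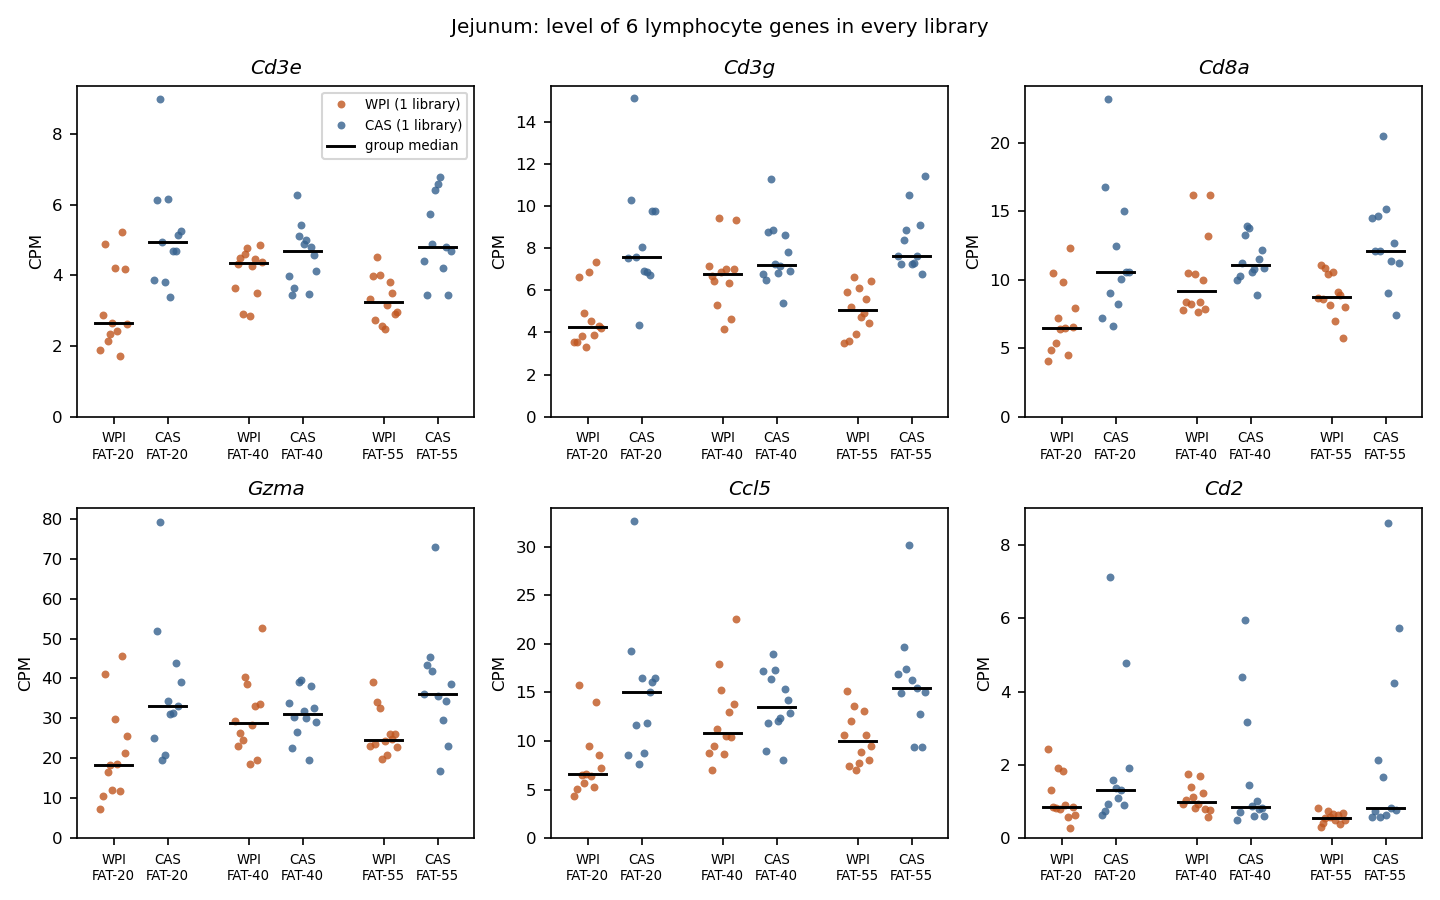
CPM of 6 genes in each jejunum library (points) with the group median (line), for WPI (orange, left) and CAS (blue, right) at each fat level. WPI medians lie below CAS medians at FAT-20 and FAT-55 for all 6 genes, and at FAT-40 the pairs of medians are closer, with that of Cd2 higher on WPI (0.993 CPM) than on CAS (0.858 CPM).

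Among the coreceptors, Cd8a and Cd4 fell. Cd8a, the CD8 alpha chain, had 4.05, 6.52 and 12.3 CPM on WPI FAT-20, against 6.64, 10.6 and 23.2 CPM on CAS FAT-20. At FAT-55 its levels were 5.79, 8.77 and 11.1 CPM on WPI, against 7.40, 12.1 and 20.5 CPM on CAS. Ranges overlapped at both fat levels, and averaged over fat the change was -0.46 ± 0.09 (edgeR adjusted p = 0.00027). Cd4, found on helper T cells and also on some dendritic cells, was at a smaller estimate (-0.21 ± 0.07, edgeR adjusted p = 0.03), and that call was lost without CAS FAT-20 replicate 11 or CAS FAT-55 replicate 6 or 7 (highest adjusted p 0.067). Only 21 of 36 WPI libraries lay below the CAS median for Cd4, and at FAT-55 11 of 12 lay above it. Cd8b1, the CD8 beta chain, was at -0.41 ± 0.17 (edgeR adjusted p = 0.098) with a median of 17 reads.

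Of the 11 adhesion and costimulatory receptors 10 fell, and the costimulatory receptor Cd28 (-0.49 ± 0.19, edgeR adjusted p = 0.073) did not pass. Cd6, a scavenger-type receptor on mature T cells, had 0.590, 1.23 and 2.70 CPM on WPI FAT-20, against 1.62, 3.22 and 4.73 CPM on CAS FAT-20. At FAT-55 it had 0.724, 0.945 and 1.51 CPM on WPI, against 1.22, 2.53 and 4.76 CPM on CAS. At both levels 12 of 12 WPI libraries lay below the CAS median, with overlapping ranges, and the change averaged over fat was -0.85 ± 0.13 (edgeR adjusted p = 1.3e-06). Cd5, an inhibitor of receptor signalling (-0.87 ± 0.16), Cd27, a costimulatory receptor (-0.79 ± 0.13), and Cd7 (-0.43 ± 0.10) fell as well. Smaller changes were measured for Cd96, a receptor that binds CD155 (-0.41 ± 0.09), Itgae (-0.31 ± 0.07), Cd244a (-0.31 ± 0.06), Thy1, a surface glycoprotein of mouse T cells (-0.26 ± 0.07), and Cd160, a receptor of cytotoxic lymphocytes (-0.24 ± 0.07). The exons of Cd160 overlap those of Pdzk1 on the other strand, and the strand setting of the counting is not given in the sources used here, so the Cd160 value is uncertain. Exons of Cd3e, Cd7, Skap1, Xcl1 and Eomes also overlap those of genes on the other strand, with the same limit. Exons of Cd27, Lck and Ifng overlap those of genes on their own strand, and those of Cd247 on both strands. These values are uncertain under any strand setting.

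Of the 5 granule genes 4 fell, and part of those calls sat near the threshold. Gzma had 7.22, 18.4 and 45.7 CPM on WPI FAT-20, against 19.5, 33.2 and 79.2 CPM on CAS FAT-20. At FAT-55 it had 19.9, 24.6 and 39.2 CPM on WPI, against 16.9, 36.2 and 72.9 CPM on CAS. The FAT-20 maximum on CAS was replicate 3 and the FAT-55 maximum replicate 5, and ranges overlapped widely. Averaged over fat Gzma changed by -0.44 ± 0.12 (edgeR adjusted p = 0.0069) and Nkg7, a granule membrane protein, by -0.43 ± 0.10. Gzmb (-0.37 ± 0.13, edgeR adjusted p = 0.049) and Prf1, which encodes perforin (-0.37 ± 0.13, 0.04), passed as well, but with 1 library left out in turn the Gzmb call was lost in 53 and the Prf1 call in 20 of 70 refits. Gzmk, a granzyme of memory T cells, was at -0.35 ± 0.19 (edgeR adjusted p = 0.22).

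Ccl5 had 4.37, 6.58 and 15.8 CPM on WPI FAT-20, against 7.68, 15 and 32.6 CPM on CAS FAT-20. Of the 12 WPI libraries 11 lay below the CAS median, and the highest reached into the CAS range. The change averaged over fat was -0.57 ± 0.12 (edgeR adjusted p = 0.0002), while Xcl1, a chemokine that draws dendritic cells, was at -0.20 ± 0.13 (0.3). Klrd1, which encodes the lectin CD94 (-0.46 ± 0.09), and Il2rb, the shared receptor chain for interleukins 2 and 15 (-0.34 ± 0.08), fell. Klrk1 (-0.17 ± 0.12, edgeR adjusted p = 0.37) and Tbx21, the transcription factor T-bet (-0.32 ± 0.12, 0.074), did not pass.

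The protein difference was measured separately at each fat level. At FAT-20 20 of 33 members fell and 0 rose (of all genes 6.23% were called, 3.57% lower and 2.66% higher), with a member median of -0.61. At FAT-55 14 fell and 0 rose (2.81% of all genes called lower), with a median of -0.56. At FAT-40 0 of 33 passed edgeR's test (0.571% of all genes called) or DESeq2's, 3 had an unadjusted p under 0.05, and the median was -0.14. Cd3e, for example, had 2.86, 4.34 and 4.86 CPM on WPI FAT-40, against 3.44, 4.68 and 6.27 CPM on CAS FAT-40, a change of -0.16 ± 0.15 (edgeR adjusted p = 0.7). That the difference was smaller at FAT-40 was not shown. The direct test of unequal protein differences at FAT-40 and FAT-20 called 0 of 33 members in edgeR and in DESeq2 (0.0118% of all genes), with 13 at an unadjusted p under 0.05 and 33 estimates above 0. The like test of FAT-55 against FAT-20 also called 0 members and 0 genes in all, with 2 members under an unadjusted p of 0.05. When counts were summed over mice whose identifiers start alike, 13 members fell at FAT-20 and 4 at FAT-55. Of all 19838 genes 227 and 65 were called there, against 1058 and 629 of 16992 without summing.

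**Figure D3:**
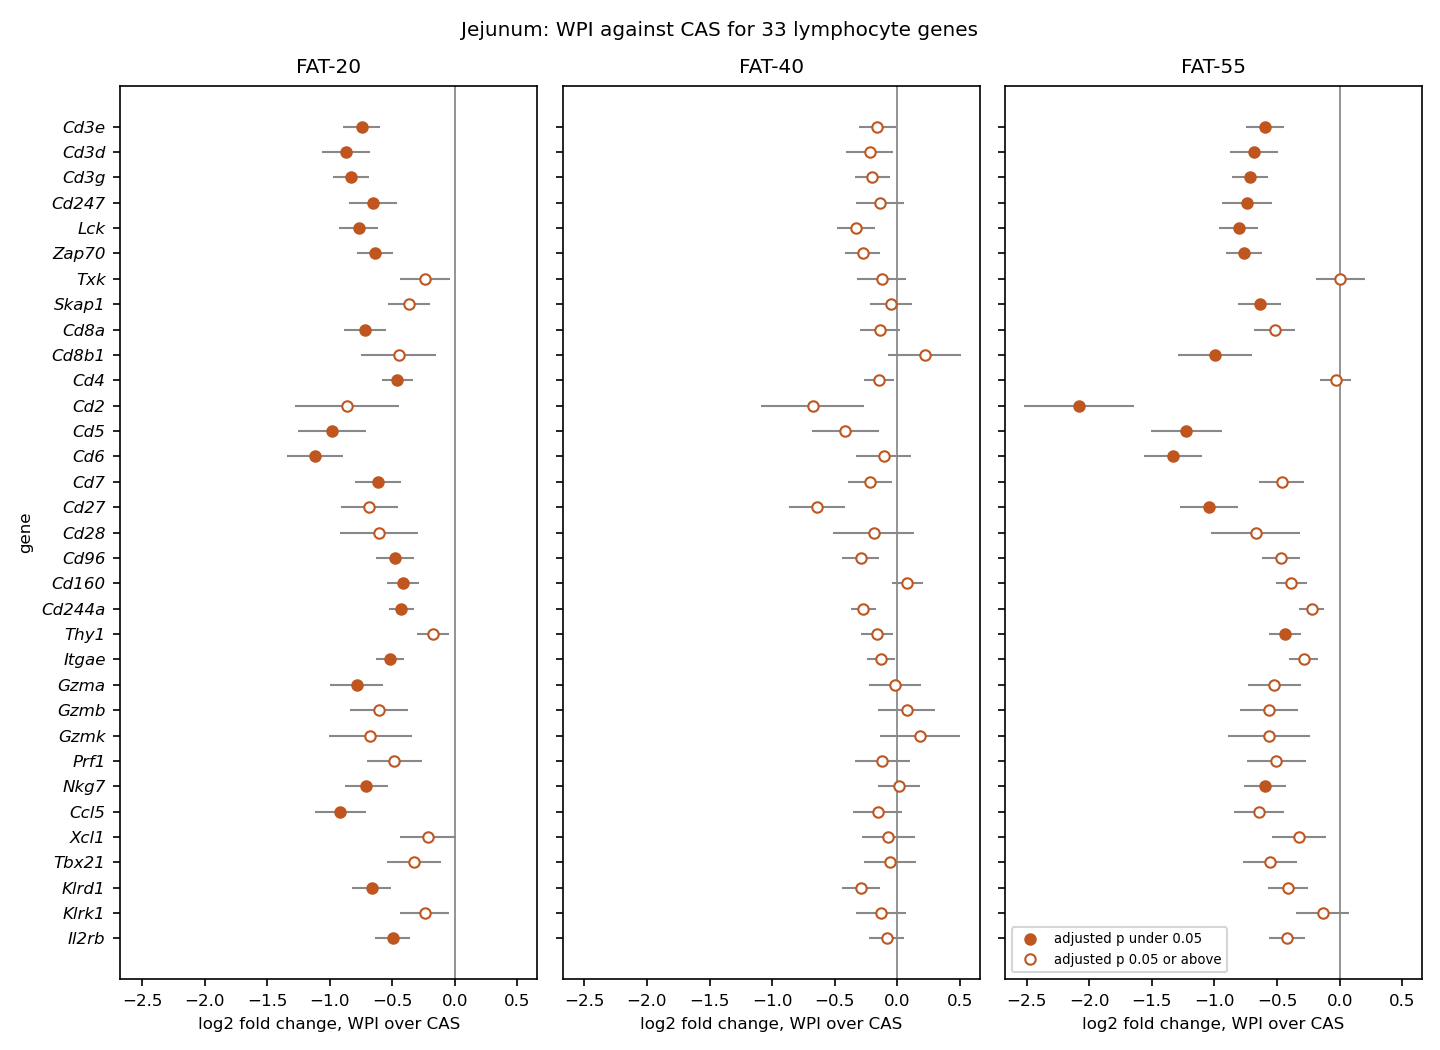
Log2 fold change of WPI over CAS (point) with its SE (line) for 33 genes in jejunum, a panel for each fat level, filled where edgeR's adjusted p is under 0.05. Filled points number 20 at FAT-20, 0 at FAT-40 and 14 at FAT-55, all left of 0.

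Among the members the largest estimate, averaged over fat (-1.21 ± 0.24) and at FAT-55, was that of Cd2, an adhesion receptor that binds CD48, and its high values sat in libraries with much B cell follicle mRNA. On FAT-55 Cd2 had 0.307, 0.559 and 0.832 CPM on WPI, against 0.584, 0.816 and 8.61 CPM on CAS, a log2 change of -2.08 ± 0.44 (edgeR adjusted p = 0.0022). The ranges overlapped, 11 of 12 WPI libraries lay below the CAS median, and 3 further CAS libraries stood above 2 CPM. Cr2, a complement receptor of follicular B cells and follicular dendritic cells, exceeded 3 CPM in 13 of 70 jejunum libraries, of which 4 of 36 were on WPI and 9 of 34 on CAS, and 0 of 12 on WPI FAT-55 against 4 of 11 on CAS FAT-55. The median of Cd2 was 4.24 CPM in those 13 libraries and 0.807 CPM in the other 57. Cd5 had 2.58 CPM in the 13 and 0.988 CPM in the 57, Cd27 had 2.0 and 0.943 CPM, and Lck had 7.96 and 4.94 CPM. Gzma (29.8 and 29.7 CPM) and Cd8a (10.6 and 10.1 CPM) were nearly level.

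**Figure D4:**
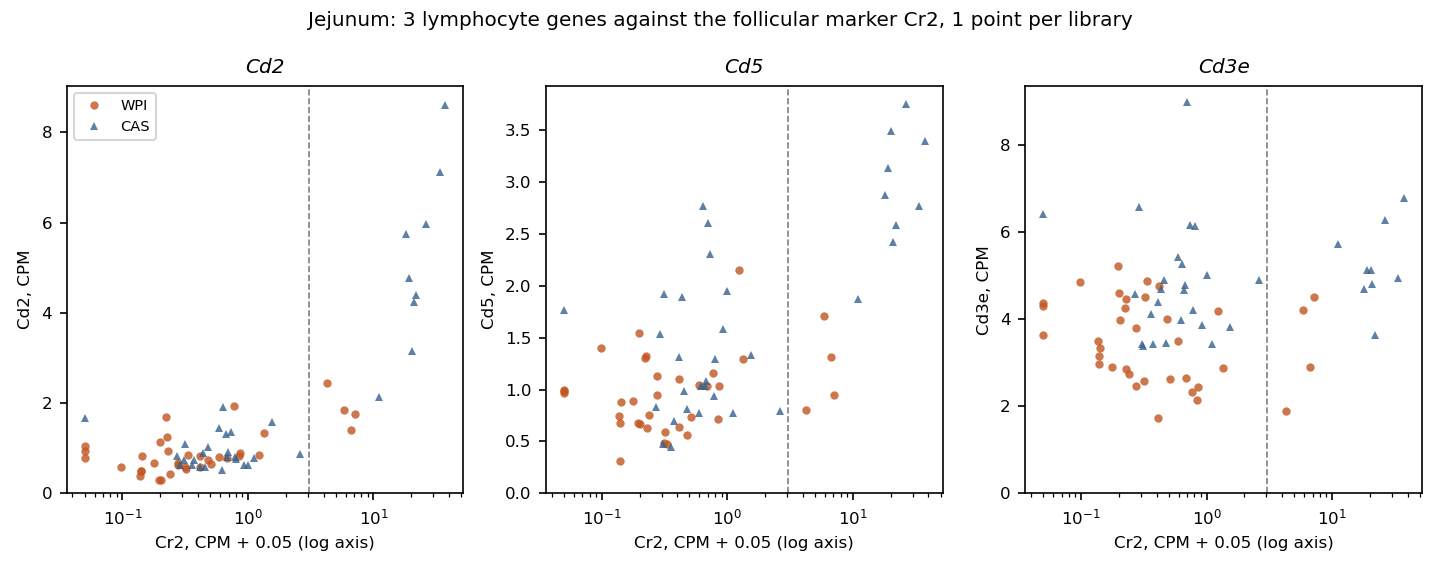
CPM of Cd2, Cd5 and Cd3e in each of 70 jejunum libraries against CPM of Cr2 plus 0.05 on a log axis, with WPI as orange circles and CAS as blue triangles; the dashed line marks 3 CPM of Cr2. Cd2 has a median of 4.24 CPM right of the line and 0.807 CPM left of it, and Cd3e lies in much the same range on both sides.

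All 10 B cell markers fell on WPI when averaged over fat (median log2 change -2.75), and their summed level reached 17.2 CPM at most on WPI FAT-55, against 436 CPM on CAS FAT-55. Group medians of that sum lay much closer than the maxima. They were 24.1 CPM on WPI and 30.2 CPM on CAS at FAT-20, 16.4 and 22.5 CPM at FAT-40, and 12.7 and 20.2 CPM at FAT-55. Whether follicles caught in the sample set the member changes was not tested. The averaged comparison was refitted without the 13 libraries, a choice made after their values were seen. The 57 libraries kept still held up to 2.56 CPM of Cr2. In that fit 16 of 33 members fell, and of all 17184 genes 500 were called lower and 524 higher. Cd3g, Cd3e, Cd3d, Lck, Zap70, Cd8a, Cd6, Cd7, Cd27, Cd96, Cd244a, Itgae, Gzma, Nkg7, Ccl5 and Klrd1 stayed called. Cd3e was at -0.45 ± 0.10 (edgeR adjusted p = 0.0016) and Gzma at -0.47 ± 0.13 (0.021) in that fit. Cd2 was at -0.21 ± 0.13 (edgeR adjusted p = 0.41) and Cd5 at -0.41 ± 0.14 (0.057). Without the 13 libraries 3 members, Cd3g, Zap70 and Cd6, were called at FAT-55 among 88 genes in all, and 16 members at FAT-20 among 775 genes. That fit dropped 4 of 11 CAS FAT-55 libraries and 0 of 12 on WPI FAT-55. Its member median was -0.51 at FAT-55, against -0.56 with all libraries, and -0.54 at FAT-20, against -0.61. Averaged over fat it was -0.37, against -0.43. At FAT-40 0 members were called among 32 genes. The member median there was -0.01 with 15 of 33 estimates above 0, against -0.14 and 5 of 33 with all libraries. CAS FAT-55 replicates 7 and 11, both above 3 CPM of Cr2, each took the FAT-55 count to 9 when left out.

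Across the 70 jejunum libraries, after diet means were removed, some members moved with Gzma, some with Cr2, and others with both or with neither. With the log2 level of Gzma, the Pearson r was 0.91 for Gzmb, 0.87 for Ccl5, 0.86 for Cd8a, 0.82 for Klrd1, 0.81 for Cd7 and 0.70 for Itgae. With that of Cr2, r was 0.80 for Cd2, 0.59 for Cd5, 0.55 for Cd27, 0.55 for Lck and 0.49 for Thy1, and -0.30 for Gzma. Lck also had r = 0.36 with Gzma. Cd3d lay between, at 0.37 with Gzma and 0.38 with Cr2, and Prf1 followed neither (0.11 and 0.099). These values describe libraries that share depth and tissue sampling, and no test is given.

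Other genes of the pathway moved with the members on WPI, averaged over fat. Of all genes 8.83% were called lower and 6.50% higher in that comparison, the shares to set beside the list counts below. All 7 constant chains of the T cell receptor fell, among them Trbc1 (-0.66 ± 0.10), Trac (-0.64 ± 0.11) and Trbc2 (-0.57 ± 0.10), and their summed level had a median of 18.8 CPM on WPI FAT-20, against 31.1 CPM on CAS FAT-20. Of 24 signalling partners tested 20 fell, led by the adaptor Grap2 (-0.81 ± 0.11, edgeR adjusted p = 1.1e-07), the transcription factor Ikzf3 (-0.93 ± 0.14) and the adaptor Lat (-0.63 ± 0.10). The 1 that rose was Ptpn22, a phosphatase that restrains Lck (0.40 ± 0.07, edgeR adjusted p = 9.6e-06), named after its value was seen. In the killer cell list 7 of 13 fell and 0 rose, including Srgn, the proteoglycan of granules (-0.45 ± 0.07), the protease Ctsw (-0.44 ± 0.07) and the granzyme inhibitor Serpinb9 (-0.29 ± 0.06).

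Of 16 homing and recirculation genes 11 fell, among them the integrin chain Itgal (-0.63 ± 0.09) and the gut homing integrin chain Itgb7 (-0.64 ± 0.10). Of 16 helper and type 3 lymphocyte genes 8 fell, led by Lag3 (-0.48 ± 0.09), Ikzf2 (-0.46 ± 0.09) and Tigit (-0.67 ± 0.13). Of 17 epithelial and chemokine genes that hold, draw or feed intraepithelial lymphocytes, 4 fell and 1 rose with a median of 0.01. The 1 of 17 called higher is near the 6.50% of all genes called higher. The chemokine Ccl20 fell (-1.22 ± 0.22), as did Tgfb1 (-0.24 ± 0.08), and Il15, a survival cytokine of these lymphocytes, rose (0.24 ± 0.07, edgeR adjusted p = 0.012). Of markers of other cells, 5 of 7 plasma cell and 7 of 9 macrophage genes fell, and 4 of 9 enterocyte genes rose. Red blood cell genes were called 0 of 5 times averaged over fat. At FAT-20 3 of 5 were higher on WPI, beside 2.66% of all genes. Their part in the member changes was not tested.

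Within a library, the ratio of Itgae to Cd3e does not depend on scaling. Its log2 mean was 2.02 ± 0.25 on WPI (SD, n = 36) and 1.83 ± 0.26 on CAS (SD, n = 34), a difference of 0.20. In a two-sided permutation test within fat levels the adjusted p was 0.017 over the 9 ratio tests run in both tissues, and 0.2 when counts were summed over mice with like identifiers. The log2 ratio of Cd8a to Cd4 was -0.47 ± 0.38 on WPI and -0.20 ± 0.49 on CAS (permutation adjusted p = 0.062). The other 7 ratios had adjusted p of 0.2 or more.

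Between fat levels in jejunum at most 3 members were called, except on WPI for FAT-40 against FAT-20. On WPI FAT-40 against WPI FAT-20, 10 of 33 rose and 0 fell. Of all genes 25.8% were called there, 12.7% higher and 13.0% lower. Those were Cd3e, Cd3d, Cd3g, Cd8a, Cd4, Cd160, Cd244a, Itgae, Nkg7 and Ccl5. Ccl5 had 7.07, 10.9 and 22.5 CPM on WPI FAT-40, against 4.37, 6.58 and 15.8 CPM on WPI FAT-20. All 12 FAT-40 libraries lay above the FAT-20 median, with overlapping ranges, and the change was 0.64 ± 0.20 (edgeR adjusted p = 0.013). Cd8a changed by 0.54 ± 0.16 and Nkg7 by 0.57 ± 0.17. With 1 library left out in turn these calls of Cd8a, Nkg7 and Cd3g held in 70 of 70 refits, those of Ccl5 and Cd3d were lost without WPI FAT-40 replicate 12 and replicate 5, in that order, and those of Cd3e, Cd4, Cd160, Cd244a and Itgae were lost in 14, 10, 6, 31 and 28 refits. With counts summed over mice with like identifiers 4 members rose (2091 of 19838 genes called), and with the identifier set as a random effect 6 did (3159 of 16992 genes).

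Smooth muscle, fat cell and red blood cell mRNA fell in the same comparison. With smooth muscle and fat cell levels in the model 0 of 33 members passed and 33 of all 16992 genes did, against 4378 genes without those covariates, and nothing particular to the members is read from it. All 5 red blood cell markers were lower, with a summed median of 14.7 CPM on WPI FAT-40, against 41.2 CPM on WPI FAT-20, and of 9 enterocyte markers 5 rose and 1 fell. All 10 smooth muscle markers were lower, and their summed level had a median of 672 CPM on WPI FAT-40, against 1447 CPM on WPI FAT-20. With those covariates Cd8a was at 0.29 ± 0.21 (edgeR adjusted p = 0.57) and Ccl5 at 0.39 ± 0.27 (0.53). Leaving out WPI FAT-40 replicate 5 or 12 took the count to 4, WPI FAT-20 replicate 6 took it to 5, and WPI FAT-20 replicates 1, 4, 8, 9 and 12 and WPI FAT-40 replicates 6, 9 and 11 each took it to 6. On CAS, FAT-40 against FAT-20 called 0 of 33 members in edgeR and in DESeq2 (25.1% of all genes called), with 3 at an unadjusted p under 0.05. That count was 3 without CAS FAT-40 replicate 4, 2 without CAS FAT-20 replicate 1 or CAS FAT-40 replicate 5, and 1 without CAS FAT-20 replicate 2, 3 or 8 or CAS FAT-40 replicate 3, and it was 3 without the 13 libraries above 3 CPM of Cr2. These comparisons share their FAT-20 groups with the protein comparison at FAT-20.

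Klrk1 was lower at the highest fat level on both proteins. It had 0.358, 0.620 and 1.02 CPM on WPI FAT-55, against 0.664, 1.07 and 1.60 CPM on WPI FAT-20 (-0.67 ± 0.20, edgeR adjusted p = 0.0078). On CAS it had 0.317, 0.719 and 1.30 CPM at FAT-55, against 0.510, 1.25 and 1.95 CPM at FAT-20 (-0.78 ± 0.21, edgeR adjusted p = 0.0032). Ranges overlapped on both proteins. On CAS it was the 1 member called (27.7% of all genes), and on WPI Thy1 (-0.48 ± 0.13) and Cd28 (-0.86 ± 0.35, edgeR adjusted p = 0.049) fell as well (30.8% of all genes). With smooth muscle and fat cell levels in the model, the calls of all genes on WPI dropped to 237 of 16992, against 5231 without them, and 0 members passed; Klrk1 was at -0.37 ± 0.28 on WPI (edgeR adjusted p = 0.58) and at -0.65 ± 0.26 on CAS (0.11). With counts summed over like identifiers Klrk1 kept its call on CAS (edgeR adjusted p = 0.021) and lost it on WPI (0.053). In that WPI comparison 0 members passed, beside 3411 of 19838 genes. Without CAS FAT-55 replicate 7 the CAS count was 4, without CAS FAT-20 replicate 2 or 5 it was 3, and it was 2 without CAS FAT-20 replicates 3 and 4, CAS FAT-55 replicates 2, 9 and 10 or WPI FAT-40 replicate 4. The WPI count was 5 without WPI FAT-20 replicate 10. Between FAT-55 and FAT-40, Cd6 was lower on WPI (-0.95 ± 0.23, edgeR adjusted p = 0.033, 0.653% of all genes called), a call lost without WPI FAT-40 replicate 1 or 5 or WPI FAT-55 replicate 2, 3, 7, 11 or 12. On CAS 0 members passed in edgeR and in DESeq2 (0.0294% of all genes called, 0.0177% lower), with 2 at an unadjusted p under 0.05.

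In liver, Cd8a, Ccl5, Gzma, Gzmb, Cd244a, Cd3e and Cd6 were higher on CAS FAT-55 than on CAS FAT-20, and the highest values of several sat in a few livers. These were 7 of 23 members and 0 fell, not far above the 22.6% of all genes called higher in a comparison that called 43.3% of genes in all. The median log2 change was 0.49 over the members and 0.00 over all genes. Cd8a had 0.142, 0.476 and 3.11 CPM on CAS FAT-55, against 0.0403, 0.183 and 0.540 CPM on CAS FAT-20. CAS FAT-55 replicates 6 and 11 had 3.11 and 2.99 CPM, 3 further livers also stood above the FAT-20 maximum, and the other 6 overlapped the FAT-20 range. The change was 2.0 ± 0.43 (edgeR adjusted p = 0.00011) and stayed between 1.61 and 2.20 when single libraries were left out.

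Ccl5 had 0.499, 1.08 and 7.97 CPM on CAS FAT-55, against 0.369, 0.617 and 2.51 CPM on CAS FAT-20, with replicates 6 and 11 again at the top of FAT-55. It changed by 1.48 ± 0.33 (edgeR adjusted p = 0.0002). Cd244a, an activating and inhibiting receptor of killer cells also called 2B4, had 0.214, 0.660 and 1.36 CPM on CAS FAT-55, against 0.0457, 0.303 and 0.424 CPM on CAS FAT-20. Of the FAT-55 livers 10 of 11 lay above the FAT-20 median for Cd244a and 9 above the FAT-20 maximum, and it changed by 1.16 ± 0.22 (edgeR adjusted p = 2.1e-05).

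Gzma (1.54 ± 0.37), Gzmb (1.14 ± 0.38), Cd3e (0.68 ± 0.27) and Cd6 (0.74 ± 0.31, edgeR adjusted p = 0.047) made up the 7. The Cd3e call was lost in 9 of 70 refits that left out a library and the Cd6 call in 16 of 65. Without CAS FAT-55 replicate 6 or 11 the count was 4, and Gzmb was lost both times. Without CAS FAT-20 replicate 4, the highest of its group for 19 of 23 members, it was 13. Against CAS FAT-40, which shares these FAT-55 livers, CAS FAT-55 had 9 members higher and 0 lower (3.60% of all genes called), Cd3e, Cd3g, Cd8a, Cd6, Cd244a, Gzma, Nkg7, Ccl5 and Klrd1. The largest changes were 1.78 ± 0.33 for Cd6 and 1.74 ± 0.40 for Cd8a, and without CAS FAT-55 replicate 11 the count was 5, with Cd8a, Gzma and Nkg7 among those lost. With counts summed over mice with like identifiers, 7 members rose against FAT-20 (5045 of 17545 genes called) and 0 against FAT-40, where 0 of all genes were called. With the identifier set as a random effect 3 members rose against FAT-20 (5301 of 15051 genes called) and 1 against FAT-40 (116 genes). With a B cell marker covariate 5 rose against FAT-20 (6137 genes called) and 3 against FAT-40 (138 genes).

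**Figure D5:**
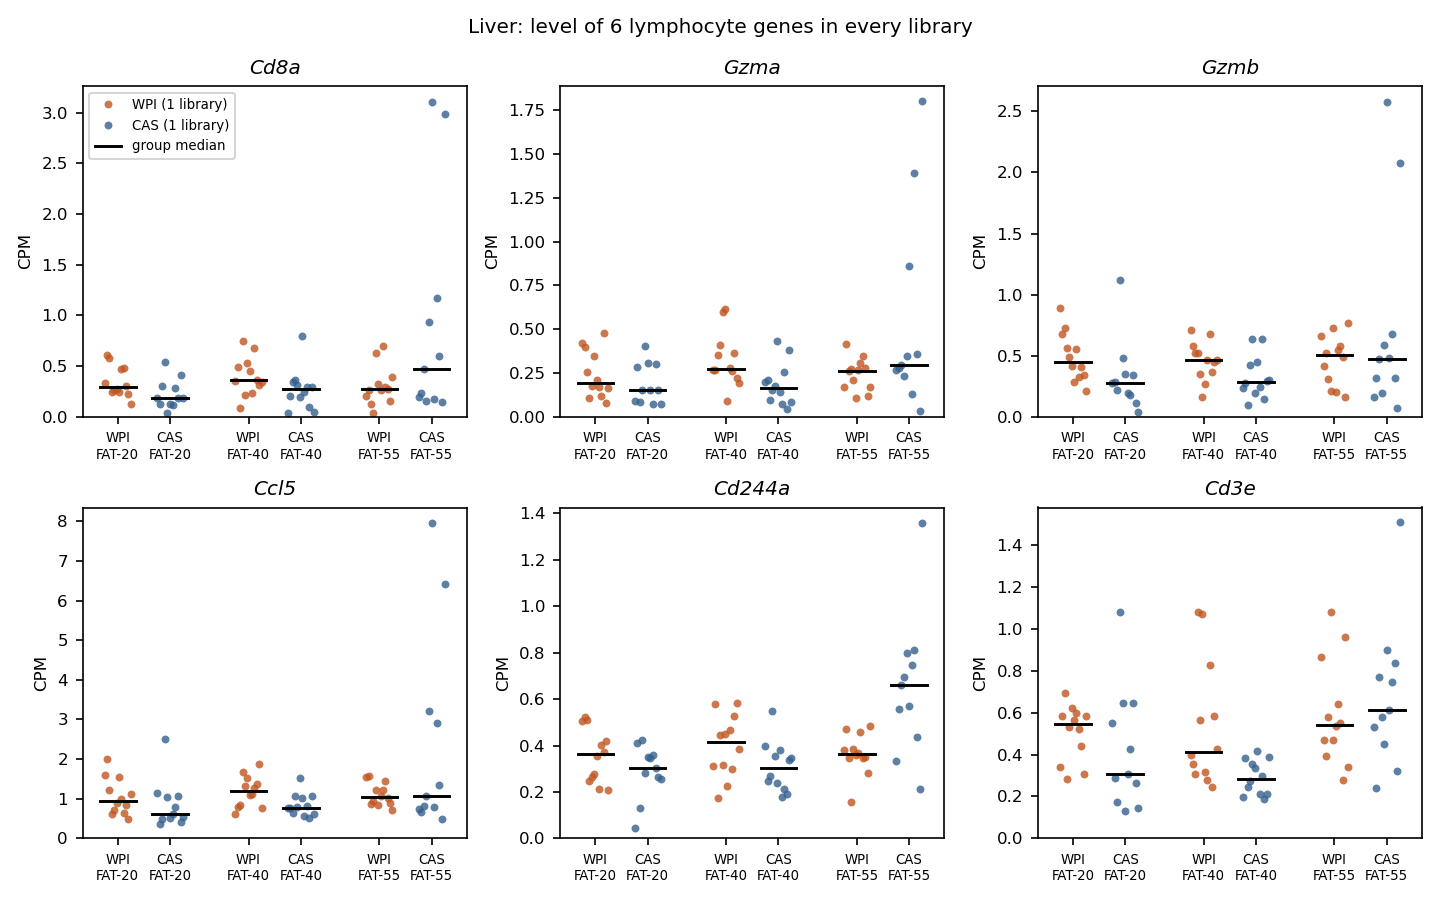
CPM of 6 genes in each liver library (points) with the group median (line), for WPI (orange, left) and CAS (blue, right) at each fat level. A few CAS FAT-55 livers stand far above the rest for Cd8a (up to 3.11 CPM), Gzma, Gzmb and Ccl5 (up to 7.97 CPM), while Cd244a is higher across most of that group.

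WPI against CAS at FAT-55 in liver, which shares the same CAS livers, gave 4 members lower and 0 higher (7.43% of all genes called lower). Cd8a had 0.0388, 0.273 and 0.702 CPM on WPI FAT-55 beside the CAS values above, a change of -1.55 ± 0.39 (edgeR adjusted p = 0.0046). Ccl5 had 0.709, 1.04 and 1.57 CPM on WPI FAT-55, close to the CAS median of 1.08 CPM but never near its maximum of 7.97 CPM (-1.12 ± 0.31, edgeR adjusted p = 0.0093). Cd244a had 0.155, 0.364 and 0.482 CPM on WPI FAT-55, and 12 of 12 livers lay below the CAS median (-0.83 ± 0.21, edgeR adjusted p = 0.0044). Gzma had 0.108, 0.264 and 0.418 CPM on WPI FAT-55, against 0.0356, 0.293 and 1.80 CPM on CAS FAT-55 (-1.18 ± 0.34, edgeR adjusted p = 0.013). The Gzma call was lost without CAS FAT-55 replicate 8 or 11 and the Ccl5 call without replicate 6 or 11, and the count was 2 without replicate 11. With counts summed over like identifiers 1 member passed (211 of 17545 genes called), and with the identifier set as a random effect 0 did (1004 of 15051 genes).

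The fat response itself differed between proteins for 3 members in liver (6.82% of all genes called). From FAT-20 to FAT-55 the log2 change on WPI minus that on CAS was -2.15 ± 0.60 for Cd8a (edgeR adjusted p = 0.022), -1.14 ± 0.31 for Cd244a (0.019) and -1.41 ± 0.46 for Ccl5 (0.045). On WPI the same fat step was -0.16 ± 0.42 for Cd8a, 0.02 ± 0.22 for Cd244a and 0.06 ± 0.32 for Ccl5. Without CAS FAT-55 replicate 6 or 11 the count was 1, while Cd244a stayed called in every refit with 1 library left out (highest adjusted p 0.049). Summed over like identifiers, with the identifier set as a random effect or with a B cell covariate, 0 members did. Of all genes 2, 110 and 298 were called in those settings, in that order.

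Elsewhere in liver few members moved. WPI against CAS averaged over fat called 0 of 23 members in edgeR and in DESeq2 (14.7% of all genes, 7.10% higher and 7.56% lower), with 2 at an unadjusted p under 0.05, and at FAT-20 0 of 23 in both tools (0.512% of all genes), with 0 under an unadjusted p of 0.05. At FAT-40 Cd3e was higher on WPI (0.89 ± 0.28, edgeR adjusted p = 0.033; of all genes 8.21% were called, 3.85% higher), with 0.244, 0.412 and 1.08 CPM on WPI FAT-40, against 0.189, 0.285 and 0.417 CPM on CAS FAT-40. This call was lost without CAS FAT-40 replicate 1 or 8 or WPI FAT-40 replicate 4, 6 or 9, and the count was 2 without CAS FAT-40 replicate 2 or 12 or WPI FAT-40 replicate 5 or 10. On WPI, FAT-40 against FAT-20 (6.54% of all genes called), FAT-55 against FAT-20 (26.6%) and FAT-55 against FAT-40 (2.29%) called 0 members in edgeR and in DESeq2, with 1, 1 and 0 under an unadjusted p of 0.05. The FAT-40 response did not differ between proteins for any member in either tool (1.49% of all genes called, 2 members under an unadjusted p of 0.05).

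On CAS FAT-40 against CAS FAT-20 in liver, Zap70 rose while Cd6 and Cd27 fell (30.2% of all genes called). Zap70 had 10.1, 14.3 and 19.9 CPM on CAS FAT-40, against 6.90, 10.7 and 12.6 CPM on CAS FAT-20. The ranges overlapped, and the change was 0.51 ± 0.12 (edgeR adjusted p = 0.00077). Cd6 changed by -1.04 ± 0.36 (edgeR adjusted p = 0.02), lost without CAS FAT-20 replicate 4, and Cd27 by -0.71 ± 0.23 (0.014). With the identifier set as a random effect in limma both calls were lost (Benjamini-Hochberg adjusted p = 0.06 for Cd6 and 0.054 for Cd27), and with summed counts that of Cd6 was (edgeR adjusted p = 0.1), while Zap70 stayed called in both.

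Among the other lists in CAS FAT-55 against CAS FAT-20 livers, counts are read against the 22.6% of all genes called higher and 20.7% called lower. Of 19 signalling partners 11 rose and 0 fell, led by Themis (3.81 ± 0.46, edgeR adjusted p = 1.1e-09), Ptprc, the pan-leukocyte marker CD45 (0.72 ± 0.16), and Runx3 (1.19 ± 0.29). In the killer cell list 7 of 18 genes had enough reads for a test. Of those 5 rose, led by Serpinb9 (0.70 ± 0.10), Srgn (0.39 ± 0.11) and Tyrobp (0.49 ± 0.15). Which cells carried this mRNA was not tested. Of 15 homing genes 5 rose with 1 lower, a share closer to that of all genes. Of 11 epithelial and chemokine genes 7 rose and 2 fell. Among them Cxcl10 (1.46 ± 0.28) and Cxcl9 (1.43 ± 0.31), chemokines that draw activated T cells, rose and Il15ra (-0.52 ± 0.08) fell. The 3 receptor constant chains tested were called 0 times in edgeR. Of the other cell markers 6 of 11 macrophage genes rose, 3 of 8 hepatocyte genes fell and 0 of 10 B cell genes passed, and their part in the member changes was not tested.

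Jejunum and liver of the same mouse were compared for each gene after diet means were removed. Over 13965 genes tested in both tissues in 70 mice the median Pearson r was 0.09, and 8.62% passed a two-sided permutation test after Benjamini-Hochberg adjustment. No member passed. The highest was Cd2, with a Pearson r of 0.33 and a Spearman rho of 0.24 (permutation p = 0.023 and 0.061, adjusted p = 0.15 and 0.26), and an r of 0.31 without the 2 mice farthest from the median in jejunum. A mouse on CAS FAT-20 had library numbers that differed between the tissues. Without that mouse (69 mice) Cd2 had a Pearson r of 0.33 (permutation adjusted p = 0.15), and again no member passed.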

How the data were processed

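Jejunum and liver RNA of 70 C57BL/6 mice on 6 diets was sequenced. The deposited tables hold raw read counts per gene, made by the authors with cutadapt, FastQC, Trim Galore and STAR on GRCm38 and passed to DESeq2 1.24.0, per the submitters' processing notes; the strand setting and the annotation release are not given in the sources used here. Rows that name no gene (19.8% to 36.4% of entries in jejunum, 20.0% to 29.0% in liver) were left out, and 55450 of 55536 gene identifiers matched a symbol.

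Each tissue was fitted alone in R 4.3.3 with edgeR 4.0.16 (quasi-likelihood test): genes kept by filterByExpr (minimum count 10, total 15; 16992 genes in jejunum and 15051 in liver), TMM scaling, 1 coefficient per diet, Benjamini-Hochberg adjustment over all genes tested, threshold 0.05. Fold changes are log2 with their SE, and CPM uses TMM library sizes. Replicates were numbered in accession order. Nothing says that mice came from separate cages, so p-values measure the spread between these samples. DESeq2 1.42.0, limma 3.58.1 (identifier start as a random effect), summed counts, marker covariates, another scaling, no filter and leaving out single libraries were the alternatives, and leaving out libraries above 3 CPM of Cr2 was added after the data were seen. Ratios and same-mouse correlations (prior count 2) used 100000 resamples. Only the edgeR test of WPI against CAS averaged over fat was checked on simulated counts with known fold changes. Those counts were drawn independently for each library, so sharing among like identifiers was not simulated.

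The members and lists were chosen with earlier results of these data known. Any member could be named; of each further list up to 3 genes with the smallest adjusted p in a comparison are named, and 1 gene is not reported here. Shifting the scaling moved the median of all genes by at most 0.0128 (log2) in jejunum and 0.00556 in liver.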

Additional observations from a re-analysis of the deposited data

Results flagged for a closer look

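In liver, the response to the highest fat level was unequal on the proteins for 3 members by the interaction term, in a test that called 6.82% of all genes. On the log2 scale, the FAT-55 over FAT-20 response on WPI minus that on CAS was -2.15 for Cd8a, -1.14 for Cd244a and -1.41 for Ccl5. Gzma (-1.57 ± 0.53, edgeR adjusted p = 0.056) did not pass. Leaving out CAS FAT-55 replicate 6 or 11 reduced the count to 1, and the Ccl5 call was lost in 22 of 70 such refits. With counts summed over like identifiers, with the identifier set as a random effect or with a B cell marker covariate, 0 members were called, beside 2, 110 and 298 genes in all.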

How the results depend on the processing

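The counts of members called kept within 1.5 times of their values under DESeq2 and median-of-ratios scaling, and no named member value changed sign under any alternative. For the other changes the cause was not tested. Calls over all genes changed with the settings too. For WPI against CAS averaged over fat in jejunum they went from 2606 of 16992 genes to 1217 with the B cell covariate. They were 1571 with the random effect and 1250 of 19838 when summed. Members called lower in that comparison went from 26 of 33 to 19 with the B cell covariate. Their number was 20 of 33 with the random effect and 21 of 34 when summed. With a B cell marker covariate the counts were, in jejunum, 5 for WPI against CAS at FAT-55, 2 on CAS for FAT-40 over FAT-20 and 2 for FAT-55 over FAT-20, and in liver 0 for WPI against CAS at FAT-40, 3 for FAT-55 against FAT-40 on CAS and 0 for the protein difference of the FAT-55 response. With fat cell and smooth muscle covariates 0 members were called in jejunum on WPI for FAT-40 or FAT-55 against FAT-20. With the identifier start as a random effect the jejunum counts were 4 for WPI against CAS at FAT-55, 6 for FAT-40 against FAT-20 on WPI and 0 for FAT-55 against FAT-40 on WPI, and the liver counts were 0 for WPI against CAS at FAT-40 and FAT-55, 1 for FAT-40 against FAT-20, 3 for FAT-55 against FAT-20 and 1 for FAT-55 against FAT-40 on CAS, and 0 for the protein difference of the FAT-55 response. Without the filter on low counts they were, in jejunum on WPI, 6 for FAT-40 against FAT-20 and 0 for FAT-55 against FAT-40, and 0 for WPI against CAS at FAT-40 in liver. Summed over like identifiers they were, in jejunum, 13 and 4 for WPI against CAS at FAT-20 and FAT-55, 4 and 0 on WPI for FAT-40 and FAT-55 over FAT-20 and 0 for FAT-55 against FAT-40 on WPI, and in liver 0 and 1 for WPI against CAS at FAT-40 and FAT-55, 0 for FAT-55 against FAT-40 on CAS and 0 for the protein difference of the FAT-55 response; the Itgae to Cd3e log2 ratio differed by 0.18 (permutation adjusted p = 0.2). Without the libraries above 3 CPM of Cr2, a choice made after seeing the data, the jejunum counts were 16 for WPI against CAS averaged over fat, 3 at FAT-55, and on CAS 3 for FAT-40 and 3 for FAT-55 over FAT-20. With 1 library left out in turn, the jejunum counts ranged 24 to 27 for WPI against CAS averaged over fat, 16 to 21 at FAT-20, 0 to 0 at FAT-40 and 9 to 17 at FAT-55; 0 to 3 on CAS and 4 to 13 on WPI for FAT-40 over FAT-20; 1 to 4 on CAS and 2 to 5 on WPI for FAT-55 over FAT-20; 0 to 0 and 0 to 1 for FAT-55 against FAT-40 on CAS and on WPI. In liver they ranged 0 to 2 and 2 to 4 for WPI against CAS at FAT-40 and FAT-55; 2 to 3, 4 to 13 and 5 to 13 on CAS for FAT-40 against FAT-20, FAT-55 against FAT-20 and FAT-55 against FAT-40; and 1 to 4 for the protein difference of the FAT-55 response. All other counts stayed at 0. Of 102 called member values, 32 lost the call with the B cell covariate, 51 with the random effect, 55 when summed, 20 without the filter and 2 each under DESeq2 and the other scaling; of 75 in jejunum, 19 lost it with the fat cell and smooth muscle covariates and 26 without the libraries rich in Cr2. No paired analysis was possible because the labels give no replicate numbers shared across diets. Liver members had few reads (a median of 7 for Cd8a and 6 for Gzma), which limits their precision, and intervals between mice say nothing of cages.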
